A study of Mus musculus with 12 samples.

Results

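Expression of 10 genes of fatty acid synthesis was examined in mouse liver and duodenum after prolonged corticosterone (CORT) treatment. The genes were chosen by name and all 10 were found in both tables, each of which lists 55416 genes. They encode the enzymes Acly, Acaca, Acacb, Fasn, Elovl6, Scd1 and Me1 and the regulators Srebf1, Mlxipl and Thrsp. Male C57BL6/J mice, 8 weeks old at the start, were injected subcutaneously every day for 8 weeks with CORT at 40 mg/kg, or with the vehicle (Veh), DMSO and Tween-80 in water. CORT is the main glucocorticoid of rodents. Each tissue had 3 Veh and 3 CORT libraries, labelled as biological replicates, which made 12 libraries in all. The duodenum libraries are labelled as intestine, and the labels do not say whether liver and duodenum came from the same mice. The methods name the strain for all mice and mention no genetic change, and the library names carry WT for Veh only. The whole tissue was used, so fewer cells of a type and less RNA per cell cannot be told apart.

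De novo lipogenesis turns carbohydrate carbon into fatty acids. ATP citrate lyase (Acly) splits cytosolic citrate to acetyl-CoA, acetyl-CoA carboxylases (ACC1, from Acaca, and ACC2, from Acacb) make malonyl-CoA, and fatty acid synthase (Fasn) builds palmitate from it with NADPH that malic enzyme (Me1) helps to supply. Elovl6 then lengthens palmitate and Scd1, the main hepatic stearoyl-CoA desaturase, introduces a double bond. In the liver the pathway is driven by insulin through SREBP-1c, a product of Srebf1, and by glucose through ChREBP, the product of Mlxipl. ACC1 is cytosolic and feeds synthesis, whereas ACC2 sits at the mitochondrial outer membrane, where its malonyl-CoA restrains entry of fatty acids into the mitochondrion.

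Values are TPM, a transcript abundance scaled for gene length and to nearly the same total in each library, so levels of different genes can be set side by side within a library, while the read depth is unknown. TPM values summed to between 983327 and 997319 per library. Fkbp5, a glucocorticoid-induced co-chaperone used as a check of the treatment, had 7.14, 12.7 and 19.5 TPM in Veh livers against 273, 249 and 221 TPM in CORT livers, and 14.0, 8.68 and 23.3 TPM in Veh duodena against 379, 281 and 252 TPM in CORT duodena, so that every library matched its label. Tsc22d3 and Per1, further glucocorticoid targets, had log2 fold changes of 1.92 and 1.09 in the liver (limma adjusted p = 0.0623 and 0.131) and 2.01 and 0.68 in the duodenum (0.0185 and 0.365). The 9 hepatocyte markers made up 9.98 to 13.2% of liver TPM and the 8 enterocyte markers 1.72 to 3.31% of duodenal TPM. In the duodenum the summed enterocyte markers did not overlap between groups, with 17140 to 25620 TPM in Veh and 28490 to 32890 TPM in CORT. The single markers were divided, as 4 had positive and 4 negative log2 fold changes, with a median of -0.0008, and 0 passed. Their part in the duodenal results was not tested. In the duodenum, 28 pancreatic acinar genes held 4.07% of TPM in Veh2 and 3.23% in Veh3 but 0.0272% in Veh1 and 0.0321 to 0.0523% in the CORT libraries. The member results of the duodenum were also computed without Veh2 and Veh3. That fit kept 1 Veh duodenum, so effect sizes alone are given for it. A further fit kept every library and removed the acinar genes, which rescales the rest but leaves other acinar RNA in place. The 10 adipocyte markers summed to 14.8 to 33.3 TPM in Veh livers and 61.7 to 162 TPM in CORT livers, while Adipoq and Lep were listed at 0 in all 6 livers and Plin1 did not exceed 0.05 TPM. The lipid droplet gene Cidec had 3.82, 3.66 and 3.59 TPM in Veh and 95.3, 113 and 9.41 TPM in CORT livers, and the fatty acid binding protein Fabp4 1.35, 17.6 and 3.52 TPM against 19.1, 24.7 and 42.3 TPM, both without overlap, and 0 of the 5 adipocyte markers tested in the liver passed. In the duodenum the adipocyte markers summed to 220 to 247 TPM in Veh and 316 to 412 TPM in CORT, with Adipoq at no more than 3.02 TPM and Plin1 at no more than 1.15 TPM, and 1 of 6 tested passed, Fabp4 (limma adjusted p = 0.0272). Of these 6, 4 had positive and 2 negative log2 fold changes, the latter including Pparg at -1.125. The summed level of the 7 macrophage markers overlapped between Veh and CORT in both tissues, at 62.6 to 82.1 against 57.3 to 158 TPM in the liver and 26.6 to 51.2 against 37.9 to 61.7 TPM in the duodenum. Among them Cd163 rose in both tissues, with 0.80 to 2.80 against 8.66 to 20.9 TPM in the liver and 0.17 to 0.51 against 2.01 to 4.06 TPM in the duodenum (limma adjusted p = 0.0159 and 0.0329), and Clec4f in the duodenum, with 0 to 0.15 against 5.31 to 10.3 TPM (0.00450). The summed smooth muscle markers overlapped, at 4.75 to 24.6 against 5.98 to 17.0 TPM in the liver and 338 to 600 against 245 to 388 TPM in the duodenum. In the duodenum all 5 had negative log2 fold changes, with a median of -0.65, and 0 passed.

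In vehicle-treated livers the 10 genes covered a wide range of levels. Scd1 stood highest, with 573, 1870 and 1551 TPM, followed by Thrsp (Spot 14, a small lipogenic protein) with 302, 152 and 774 TPM and Fasn with 206, 254 and 336 TPM. The ranges of these neighbours overlapped, so their order within the top is not resolved. Srebf1 (96.4 ± 36.1 TPM, SD, n = 3), Acly (74.2 ± 23.0 TPM), Me1 (65.6 ± 31.8 TPM) and Mlxipl (56.9 ± 4.46 TPM) formed a middle group whose neighbours overlapped, below Fasn in every library. Acaca (21.0 ± 3.64 TPM) and Elovl6 (16.8 ± 3.97 TPM) overlapped each other, and Acacb was the lowest at 8.90 ± 3.88 TPM, below the lowest value of Elovl6. The coefficient of variation between Veh livers ran from 7.84% for Mlxipl to 79.3% for Thrsp, so the precision differed strongly between members.

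The Veh duodenum had another order. Me1 had the highest mean, 46.2 TPM, but its libraries were at 8.54, 107 and 23.0 TPM, so its rank is not resolved. Mlxipl (36.1 ± 4.45 TPM), Srebf1 (30.2 ± 11.9 TPM), Elovl6 (27.3 ± 2.39 TPM), Acly (23.3 ± 1.97 TPM) and Fasn (18.5 ± 0.835 TPM) followed, and Acaca stood at 6.55 ± 0.442 TPM. Thrsp, Scd1 and Acacb were close to 1 TPM, with means of 1.77, 1.39 and 1.34 TPM and overlapping ranges. The tables of both tissues were scaled separately, so the gap between 1331 TPM of Scd1 in Veh liver and 1.39 TPM in Veh duodenum is given as values and was not tested. Scd1 belongs to a family of closely similar genes, and reads shared among them were divided by the authors' quantification.

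**Figure D1:**
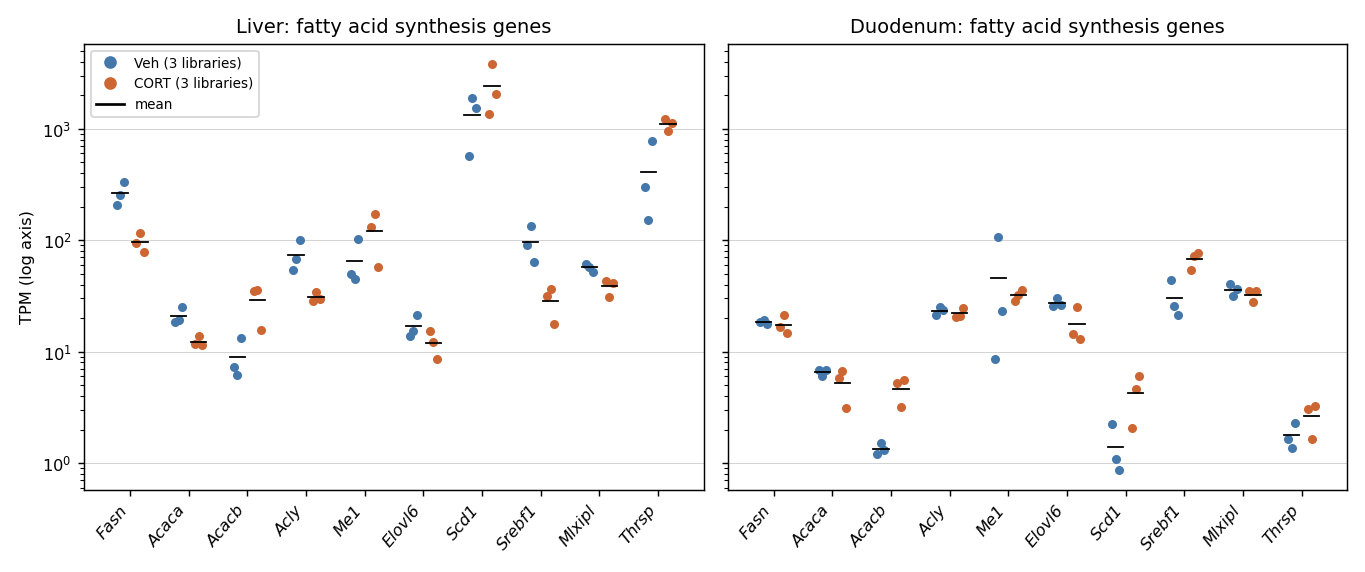
TPM of the 10 fatty acid synthesis genes (log axis) in liver, left, and duodenum, right. Each point is a library, blue for Veh and orange for CORT, with 3 libraries per group and a black line at the mean. In the liver the CORT points of Fasn, Acaca, Acly, Srebf1 and Mlxipl lie below all Veh points and those of Acacb and Thrsp above them, while in the duodenum the points of Acacb and Srebf1 lie higher and those of Elovl6 lower in CORT without overlap.

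The first comparison asked how CORT altered these genes in the liver. Srebf1, Fasn, Acly and Acaca were 3.28-fold, 2.72-fold, 2.29-fold and 1.64-fold lower in CORT-treated livers, while no member passed the test in the other direction. Acacb and Thrsp had higher values in every CORT library but missed the threshold. Differences were tested with limma on log2(TPM + 1), with Benjamini-Hochberg adjustment over all 11699 genes whose group mean reached 1 TPM in Veh or CORT, and a gene passed with an adjusted p up to 0.05 and a change of more than 1.5-fold. All 10 members entered the test. Of them, 4 passed as lower, against 2.01% of all tested genes, and 0 as higher, against 4.91% of all tested genes. At an unadjusted p under 0.05, with no limit on fold change, 7 of 10 were counted, against 25.9% of all tested genes. The median log2 fold change of the 10 members was -0.51 against 0.08 for all tested genes.

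Fasn had 206, 254 and 336 TPM in Veh livers and 94.6, 116 and 78.4 TPM in CORT livers. The groups stood well apart, and the lowest Veh library held more Fasn than any CORT library. The log2 fold change was -1.44 ± 0.22 (SE, n = 3 per group, limma adjusted p = 0.0150). Acly, upstream of the carboxylases, had 54.6, 68.5 and 99.4 TPM in Veh livers and 28.7, 34.1 and 29.9 TPM in CORT livers. The CORT libraries agreed closely while the Veh libraries spread, and the log2 fold change was -1.20 ± 0.22 (limma adjusted p = 0.0267). Acaca, the cytosolic carboxylase, had 18.5, 19.3 and 25.2 TPM in Veh livers against 11.6, 13.8 and 11.5 TPM in CORT livers. The log2 fold change, -0.72 ± 0.16, was the smallest of those that passed (limma adjusted p = 0.0426).

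Srebf1, which encodes SREBP-1a and SREBP-1c from separate start sites that the gene-level value adds together, had 90.9, 135 and 63.3 TPM in Veh livers. CORT livers had 31.5, 36.4 and 17.8 TPM, all below the lowest Veh library. The log2 fold change was -1.71 ± 0.34 (limma adjusted p = 0.0339). Mlxipl, the ChREBP gene, had 61.3, 57.1 and 52.4 TPM in Veh livers and 42.9, 31.1 and 41.3 TPM in CORT livers. Its groups did not overlap, but the log2 fold change of -0.57 ± 0.16 missed the threshold (limma adjusted p = 0.0784).

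These calls rested on few libraries. Fasn was no longer called without CORT1 (limma adjusted p = 0.0579) and was called without any other single liver library. Acly lost its call without Veh2 (0.0530), CORT1 (0.0940), CORT2 (0.0587) or CORT3 (0.0646). Srebf1 kept it only without Veh3, with limma adjusted p = 0.0956, 0.0631, 0.0863, 0.0523 and 0.0609 without Veh1, Veh2, CORT1, CORT2 and CORT3. Acaca lost it without any one of the 6 libraries, at limma adjusted p between 0.0568 and 0.148. The direction of all 4 genes was negative in each of these fits.

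The remaining enzymes of the liver did not pass. Acacb, the mitochondrial ACC, had 7.23, 6.13 and 13.3 TPM in Veh livers and 35.0, 35.8 and 15.7 TPM in CORT livers. CORT3 lay just above Veh3, and the log2 fold change of 1.57 ± 0.38 missed the threshold (limma adjusted p = 0.0555), which it passed without CORT3 (0.0247). Thrsp had 302, 152 and 774 TPM in Veh livers against 1227, 963 and 1136 TPM in CORT livers. Here the spread lay in the Veh group, and the log2 fold change of 1.74 ± 0.53 gave a limma adjusted p = 0.0954, which fell to 0.0260 without Veh3. Scd1 had 573, 1870 and 1551 TPM in Veh livers and 1365, 3792 and 2043 TPM in CORT livers, so the groups overlapped (log2 fold change 0.89, 95% interval -0.35 to 2.13, limma adjusted p = 0.334). Me1 overlapped as well, with 49.5, 44.98 and 102 TPM in Veh and 130, 173 and 57.1 TPM in CORT livers (log2 fold change 0.82, 95% interval -0.27 to 1.92, limma adjusted p = 0.311). Elovl6 had 13.8, 15.3 and 21.3 TPM in Veh and 15.2, 12.3 and 8.56 TPM in CORT livers (log2 fold change -0.46, 95% interval -1.03 to 0.11, limma adjusted p = 0.274). These intervals include changes of more than 1.5-fold, so the data do not show that the 3 enzymes were unaffected. Counted by separation alone, 7 of 10 members had Veh and CORT values that did not overlap, 5 lower and 2 higher, against 32.2% of all tested genes.

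The proximal promoters of 4 members are shown here because Fasn, Acly and Srebf1 fell in the liver and responded differently in the duodenum, while Acacb was the member that passed as higher in the duodenum. RefSeq promoter windows (GRCm38.p6, whereas the expression tables rest on GRCm39) matched 9 of 10 members, with 13 windows, and Scd1 had no entry. Each line gives the 250 bases before the start site, 5′ to 3′ on the transcribed strand, with CCAAT boxes, read on either strand, in capitals. The stretches are chr11:120824548-120824797 on the minus strand for Fasn, chr11:100528001-100528250 on the minus strand for Acly, chr11:60210472-60210721 on the minus strand for Srebf1 (the most downstream of its 3 starts in the table) and chr5:114165268-114165517 on the plus strand for Acacb.
Fasn: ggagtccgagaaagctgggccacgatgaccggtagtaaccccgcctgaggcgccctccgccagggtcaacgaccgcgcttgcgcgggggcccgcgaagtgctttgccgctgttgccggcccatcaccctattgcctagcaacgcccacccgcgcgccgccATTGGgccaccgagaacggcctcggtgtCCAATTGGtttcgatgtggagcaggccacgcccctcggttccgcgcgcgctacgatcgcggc
Acly: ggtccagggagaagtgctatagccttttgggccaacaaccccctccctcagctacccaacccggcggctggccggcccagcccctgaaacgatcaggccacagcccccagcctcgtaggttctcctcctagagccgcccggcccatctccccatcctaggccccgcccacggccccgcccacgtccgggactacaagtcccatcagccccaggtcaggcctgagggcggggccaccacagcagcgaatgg
Srebf1: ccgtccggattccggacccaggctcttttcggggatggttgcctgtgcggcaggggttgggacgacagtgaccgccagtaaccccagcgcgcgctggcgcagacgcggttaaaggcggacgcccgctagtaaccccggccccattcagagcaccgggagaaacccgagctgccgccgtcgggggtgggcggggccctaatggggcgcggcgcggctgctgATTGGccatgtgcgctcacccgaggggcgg
Acacb: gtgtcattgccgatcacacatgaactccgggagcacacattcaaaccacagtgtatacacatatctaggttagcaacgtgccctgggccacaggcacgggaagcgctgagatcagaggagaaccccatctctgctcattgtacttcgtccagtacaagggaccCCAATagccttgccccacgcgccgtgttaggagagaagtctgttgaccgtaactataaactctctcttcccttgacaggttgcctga
CCAAT boxes bind NF-Y, a factor known to act beside SREBP. The Fasn stretch held 3 CCAAT boxes, 2 of which share bases on opposite strands in CCAATTGG, and 0 GC boxes. That of Acly held 0 CCAAT and 4 GC boxes (GGGCGG, bound by Sp1), that of Srebf1 1 CCAAT and 2 GC boxes, and that of Acacb 1 CCAAT and 0 GC boxes. The G and C content was 69.2% for Fasn, 68.8% for Acly, 70.8% for Srebf1 and 52.4% for Acacb. Over the full windows, which add 50 bases after the start, and on both strands, CCAAT occurred in 8 of 13 member windows, from 7 members, and in 37.4% of all 32851 RefSeq windows, and GGGCGG in 5 of 13 member windows, from 4 members, and in 35.7% of all windows. The E-box CACGTG occurred in 1 of 13 member windows (Mlxipl) and 7.15% of all windows, the glucocorticoid half-site AGAACA in 2 of 13 (Acaca and Mlxipl) and 19.0%, and the sterol element core TCACCCCA in 0 of 13 and 1.56%. These are matches of letters in a short window and not binding sites.

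In the duodenum the response had another form. Acacb was 2.37-fold higher in CORT-treated samples and was the member that passed the test, while Fasn and Acly stood at nearly the same level in both groups. Srebf1 had higher values in every CORT library, the opposite of the liver, but missed the threshold. Of the 10 members, all tested, 1 passed as higher, against 1.23% of the 13607 tested genes, and 0 as lower, against 0.919%. At an unadjusted p under 0.05, with no limit on fold change, 4 of 10 were counted, against 19.2% of all tested genes. The median log2 fold change of the members was 0.05 against -0.01 for all tested genes.

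Acacb had 1.20, 1.51 and 1.31 TPM in Veh duodena and 5.18, 3.20 and 5.54 TPM in CORT duodena. Although the level was low, all CORT libraries lay above all Veh libraries, with a log2 fold change of 1.24 ± 0.21 (limma adjusted p = 0.0372). The ratio of mean TPM was 3.46, larger than the fold change because the added 1 TPM damps low values. The call was lost without Veh1 (limma adjusted p = 0.0809), Veh2 (0.101), Veh3 (0.131), CORT1 (0.103) or CORT3 (0.10). Without both acinar-rich libraries, Veh2 and Veh3, the log2 fold change was 1.33, from the 1 remaining Veh library. With the acinar genes removed and every library kept it was 1.22 (limma adjusted p = 0.0365), and the call was kept.

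Srebf1 had 43.7, 25.7 and 21.2 TPM in Veh duodena and 54.4, 72.4 and 77.4 TPM in CORT duodena. The groups did not overlap, but Veh1 came close to CORT1, and the log2 fold change of 1.20 ± 0.28 missed the threshold (limma adjusted p = 0.0827), which it passed without Veh1 (0.0263). Without both acinar-rich Veh libraries the log2 fold change was 0.61, and with the acinar genes removed it was 1.16 (limma adjusted p = 0.0752). Scd1 had 2.23, 1.08 and 0.870 TPM in Veh and 2.07, 4.59 and 6.07 TPM in CORT duodena, with overlapping groups (log2 fold change 1.09, limma adjusted p = 0.169). Elovl6 had 25.6, 30.0 and 26.2 TPM in Veh and 14.5, 25.4 and 13.1 TPM in CORT duodena. CORT2 lay just below the lowest Veh library, so the groups did not overlap, and the log2 fold change was -0.65 (limma adjusted p = 0.208). In all, 3 of 10 members did not overlap between groups, 2 higher and 1 lower, against 26.4% of all tested genes.

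Fasn had 18.5, 19.3 and 17.6 TPM in Veh and 16.5, 21.4 and 14.7 TPM in CORT duodena. The Veh range lay within the CORT range, and the log2 fold change was -0.09 with a 95% interval of -0.46 to 0.28 (limma adjusted p = 0.794), which does not reach a 1.5-fold change in either direction. Acly, with 21.2, 25.1 and 23.7 TPM in Veh and 20.5, 20.9 and 24.9 TPM in CORT duodena, had an interval of -0.39 to 0.24 (limma adjusted p = 0.781). Mlxipl was at 36.1 ± 4.45 TPM in Veh and 32.6 ± 3.92 TPM in CORT, with an interval of -0.50 to 0.21. Acaca, at 6.55 ± 0.442 TPM in Veh and 5.21 ± 1.88 TPM in CORT, had a log2 fold change of -0.33 (limma adjusted p = 0.495), and Thrsp, at 1.77 ± 0.487 and 2.64 ± 0.882 TPM, one of 0.38 (limma adjusted p = 0.444). Me1 was too variable among Veh libraries to be compared closely, with 28.4, 32.1 and 36.1 TPM in CORT duodena inside the Veh range and a 95% interval of -1.67 to 2.03 on the log2 scale. Without Veh2 and Veh3 its log2 fold change was 1.79 and that of Scd1 was 0.62.

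The study analysed the tissues separately, each as CORT against Veh. Here the difference between the responses of the tissues was tested with a treatment by tissue term in limma. It covered 10500 genes tested in both tissues, with the 12 libraries taken as independent. A negative difference means that the log2 fold change, CORT over Veh, was lower in the liver than in the duodenum. Of the 10 members, 3 had an adjusted p up to 0.05 (Srebf1, Fasn and Acly), against 3.00% of the genes tested. Srebf1 differed most, with a log2 difference of -2.91 ± 0.47 (adjusted p = 0.00779 by limma), with values lower than Veh in every CORT liver and higher than Veh in every CORT duodenum. This difference passed without any 1 of the 12 libraries. It was -2.32 without both acinar-rich duodenal libraries, Veh2 and Veh3, a fit that kept 1 Veh duodenum. Fasn differed by -1.36 ± 0.28 (limma adjusted p = 0.0245), a call lost without liver CORT1 (0.0591), duodenal Veh3 (0.0636) or duodenal CORT2 (0.0527). Acly differed by -1.12 ± 0.27 (limma adjusted p = 0.0443) and passed in 1 of 12 fits that left out a library, with limma adjusted p up to 0.104. Without duodenal Veh2 and Veh3 the difference was -1.35 for Fasn and -1.25 for Acly. Thrsp differed by 1.37 in the other direction (limma adjusted p = 0.274, and 0.0294 without liver Veh3). For Acacb the difference was 0.33 with a 95% interval of -0.66 to 1.31 (limma adjusted p = 0.765), which leaves room for more than a 1.5-fold difference between the responses. Acaca, Scd1, Elovl6, Me1 and Mlxipl did not pass either, at limma adjusted p between 0.349 and 0.912.

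**Figure D2:**
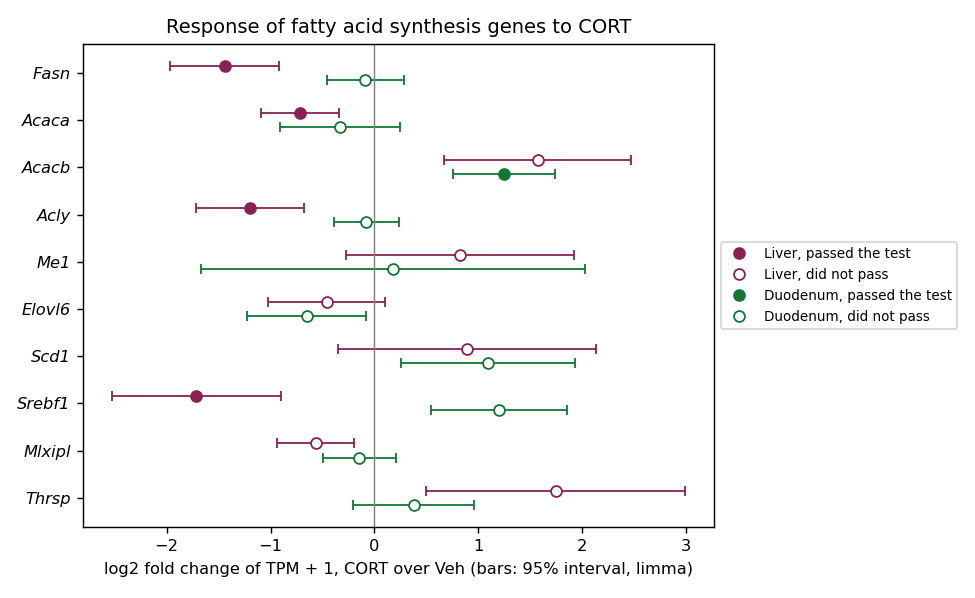
Log2 fold change of TPM + 1, CORT over Veh, of each fatty acid synthesis gene in liver (purple) and duodenum (green), with 95% intervals from limma as bars. Filled points passed the test within their tissue, which were Fasn, Acaca, Acly and Srebf1 in the liver and Acacb in the duodenum, and the Srebf1 points lie on opposite sides of 0.

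Fold changes of the carboxylases had opposite signs in each tissue, so as a description, with no test, the share of Acacb in the summed TPM of Acaca and Acacb was computed per library. In Veh livers Acacb made up 28.1, 24.1 and 34.6% of ACC transcripts, and in CORT livers 75.1, 72.2 and 57.7%. Acaca was thus the more abundant transcript in every Veh liver and Acacb in every CORT liver. The mean share was 28.9% ± 5.32 (SD, n = 3) in Veh and 68.3% ± 9.32 in CORT, a difference of 39.4 percentage points. In the duodenum the share was 15.0, 20.0 and 16.1% in Veh and 47.2, 32.2 and 64.1% in CORT, again without overlap. The means were 17.0% ± 2.62 and 47.9% ± 16.0, a difference of 30.8 percentage points. The summed level of both genes overlapped between groups in the liver and not in the duodenum, with 29.9 ± 7.47 TPM in Veh and 41.1 ± 12.1 TPM in CORT livers and 7.89 ± 0.303 TPM in Veh and 9.85 ± 1.17 TPM in CORT duodena.

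**Figure D3:**
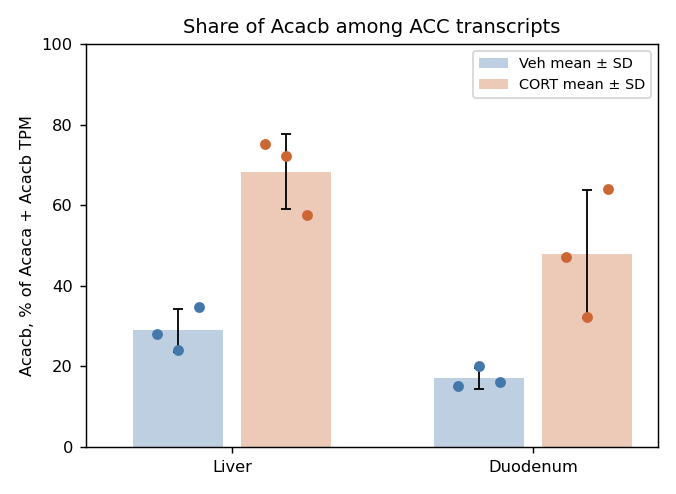
Share of Acacb in the summed TPM of Acaca and Acacb, in percent, for liver and duodenum. Points are libraries, bars are means and error bars SD (n = 3 per group), with Veh in blue and CORT in orange. In both tissues every CORT library lies above every Veh library, at 57.7% or more against 34.6% or less in the liver and at 32.2% or more against 20.0% or less in the duodenum.

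Genes that control SREBP processing were examined next, since the SREBP proteins are held in the endoplasmic reticulum by Insig proteins and carried to the Golgi for cleavage by Scap. In the liver, Insig2 rose and Scap fell. Insig2 had 64.4, 46.9 and 51.8 TPM in Veh livers against 658, 638 and 345 TPM in CORT livers, which was the largest response among the 18 genes of SREBP, ChREBP and ACC control. Its log2 fold change was 3.26 ± 0.27 (limma adjusted p = 0.00204), a call that was made without any 1 of the 6 libraries. Scap had 30.6, 43.9 and 40 TPM in Veh and 21.2, 20.9 and 17.6 TPM in CORT livers, with a log2 fold change of -0.89 ± 0.17 (limma adjusted p = 0.0277) that passed only without Veh1 among the fits that left out a library. The other 16 genes of this list did not pass. Thus 1 of 18 was higher and 1 of 18 lower, against 4.91% and 2.01% of all tested genes. The list median was 0.11 on the log2 scale.

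Insig1, whose transcription SREBPs are known to drive, had 106, 244 and 92.4 TPM in Veh livers and 38.2, 39.2 and 69.1 TPM in CORT livers. The groups did not overlap, and the log2 fold change of -1.49 ± 0.40 missed the threshold (limma adjusted p = 0.0720). Mid1ip1, a partner of Thrsp that promotes ACC polymerisation, had 49.7, 79.2 and 28.4 TPM in Veh and 18.5, 18.2 and 29.6 TPM in CORT livers (log2 fold change -1.13, limma adjusted p = 0.115). Nr1h3, the gene of LXR alpha, which activates Srebf1, had 63.4, 73.4 and 55.5 TPM in Veh and 77.0, 72.6 and 74.4 TPM in CORT livers, and Mlx, the dimer partner of ChREBP, 20.6, 23.6 and 18.9 TPM against 23.9, 26.1 and 24.8 TPM. Their log2 fold changes were 0.23 and 0.24 (limma adjusted p = 0.347 and 0.286).

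In the duodenum 1 of the 18 control genes passed, as higher, against 1.23% of all tested genes. Nr0b2, the gene of the repressor SHP, had 5.92, 8.78 and 7.10 TPM in Veh and 20.9, 22.5 and 15.9 TPM in CORT duodena (log2 fold change 1.33 ± 0.19, limma adjusted p = 0.0253), called in 3 of 6 fits without a library (limma adjusted p up to 0.1004), and the list median was 0.10. Insig2 had 21.8, 10.6 and 20.3 TPM in Veh and 15.8, 24.9 and 20.6 TPM in CORT duodena, with overlapping groups, and its response differed from that of the liver by a log2 difference of 3.01 ± 0.42 (adjusted p = 0.00351 by limma). Scap was at 12.7 to 13.9 TPM in Veh and 9.98 to 13.9 TPM in CORT duodena. Insig1 (log2 fold change 0.72), Nr1h3 (0.62), Mid1ip1 (0.41) and Mlx (-0.33) did not pass, at limma adjusted p between 0.155 and 0.349. Without Veh2 and Veh3 the log2 fold change of Nr0b2 was 1.57, and the Insig2 difference between tissues was 3.37. No cause of the Srebf1 difference between tissues was tested.

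**Figure D4:**
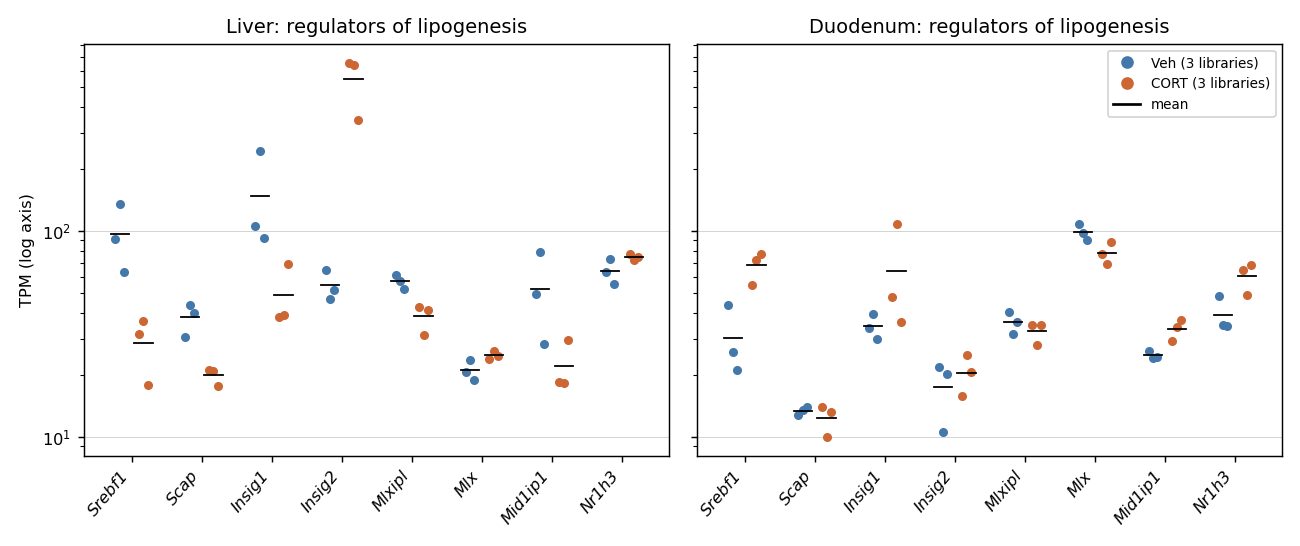
TPM (log axis) of regulators of lipogenesis in liver, left, and duodenum, right. Each point is a library, blue for Veh and orange for CORT, with 3 libraries per group and a black line at the mean. Insig2 in the liver moves from 46.9 to 64.4 TPM in Veh to 345 to 658 TPM in CORT, whereas in the duodenum its groups overlap.

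Few genes of carbon and NADPH supply passed. In the liver 0 of 11 tested genes passed with limma, where 4.91% of all tested genes were higher and 2.01% lower. An unadjusted p under 0.05 was found for 2, against 25.9% of all tested genes. The list median was 0.09 on the log2 scale. Slc25a1, the mitochondrial citrate carrier, was at 141, 193 and 181 TPM in Veh and 132, 153 and 104 TPM in CORT livers (log2 fold change -0.41, limma adjusted p = 0.229). Pklr, the hepatic pyruvate kinase and a classical ChREBP target, ranged from 125 to 329 TPM in Veh and from 57.1 to 393 TPM in CORT livers, too wide for a comparison. In the duodenum 1 of 11 tested genes passed, as lower, against 0.919% of all tested genes, with a list median of -0.46. This was G6pdx, the entry enzyme of the pentose phosphate pathway, which fell from 43.6, 54.1 and 55.9 TPM in Veh to 29.9, 24.5 and 26.0 TPM in CORT (log2 fold change -0.91 ± 0.15, limma adjusted p = 0.0336). G6pdx had 0.900 to 1.98 TPM in Veh and 1.98 to 4.0 TPM in CORT livers. Its call in the duodenum was made in 1 of 6 fits that left out a library (adjusted p up to 0.133 by limma). Without both Veh2 and Veh3 its duodenal log2 fold change was -0.69. Its response differed between the tissues by a log2 difference of 1.58 (adjusted p = 0.0180 by limma), and by 1.37 without duodenal Veh2 and Veh3. Slc25a1 had 160, 150 and 156 TPM in Veh and 134, 90.9 and 117 TPM in CORT duodena, and Pklr 199, 217 and 210 TPM against 187, 148 and 189 TPM. Neither group pair overlapped, yet both missed the threshold (limma adjusted p = 0.194 and 0.353). Of the 11 tested genes in the duodenum, 8 had groups without overlap, 1 higher and 7 lower, against 26.4% of all tested genes. An unadjusted limma p under 0.05 was found there for 7 of 11, against 19.2% of all tested genes.

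Elongases and desaturases other than Elovl6 and Scd1 passed in different places. In the liver 1 of 13 tested genes passed, as lower, against 2.01% of all tested genes, with a list median of 0.12 on the log2 scale. This was Fads3, a desaturase of the front-end family, with 7.88, 7.39 and 5.99 TPM in Veh and 1.29, 1.35 and 1.60 TPM in CORT livers. Its log2 fold change was -1.74 ± 0.15 (limma adjusted p = 0.00237). In the duodenum 3 of 12 passed, all lower, against 0.919% of all tested genes, with a list median of -0.34. Scd2, the stearoyl-CoA desaturase of many tissues outside the liver, had 10.8, 8.0 and 8.30 TPM in Veh and 2.52, 3.62 and 3.92 TPM in CORT duodena (log2 fold change -1.21 ± 0.19, limma adjusted p = 0.0305). Scd2 thus had clearly separate groups there, whereas Scd1 values ran the other way without passing. Fads2 and Fads1, the delta-6 and delta-5 desaturases of polyunsaturated fatty acids, had log2 fold changes of -0.99 ± 0.14 and -0.75 ± 0.13 (limma adjusted p = 0.0240 and 0.0372). Leaving out any one library ended the calls of Scd2 (limma adjusted p up to 0.108) and Fads1 (up to 0.147), and Fads2 was called in 2 of 6 such fits. Without both Veh2 and Veh3 the log2 fold changes were -1.46 for Scd2, -1.13 for Fads2 and -0.61 for Fads1. In Veh livers Scd2 was at 0.760, 5.21 and 1.00 TPM against 1.49, 2.33 and 2.32 TPM in CORT livers. None of the 6 tested genes of mitochondrial fatty acid synthesis passed in either tissue with limma. In either tissue 0 had an unadjusted p under 0.05, against 25.9% of all tested genes in the liver and 19.2% in the duodenum. The list medians were -0.04 in the liver and -0.26 in the duodenum.

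Downstream of synthesis, some enzymes that esterify fatty acids into glycerolipids rose. In the liver 4 of 12 tested genes passed as higher and 0 as lower, against 4.91% and 2.01% of all tested genes, with a list median of 0.82. Gpat3, a glycerol-3-phosphate acyltransferase, had 0.270, 1.55 and 0.610 TPM in Veh and 11.7, 9.94 and 7.08 TPM in CORT livers, and Gpat4 had 22.01, 31.1 and 22.3 TPM against 104, 61.7 and 108 TPM. Their log2 fold changes were 2.58 ± 0.29 and 1.80 ± 0.25 (limma adjusted p = 0.00597 and 0.0108). The acyltransferases of the next step, Agpat2 and Agpat3, rose less, with log2 fold changes of 0.71 and 0.70 (adjusted p = 0.0225 and 0.0393 by limma). Gpat3 and Gpat4 were called without any one library, and Agpat2 and Agpat3 in 1 of 6 such fits each (limma adjusted p up to 0.0833 and 0.14). In the duodenum 1 of 11 passed, as higher, against 1.23% of all tested genes, with a list median of 0.20. This was Dgat2, which completes triglycerides, from 354, 248 and 268 TPM in Veh to 1265, 982 and 1078 TPM in CORT (log2 fold change 1.94 ± 0.18, limma adjusted p = 0.00621). In the liver Dgat2 was at 243, 273 and 295 TPM in Veh and 308, 280 and 311 TPM in CORT. The responses differed between tissues for Gpat3, Gpat4 and Dgat2, with log2 differences of 2.59, 1.71 and -1.79 (adjusted p = 0.00303, 0.00987 and 0.00152 by limma). Without duodenal Veh2 and Veh3 the duodenal log2 fold change of Dgat2 was 1.64. The difference between tissues was then 2.88 for Gpat3, 1.775 for Gpat4 and -1.49 for Dgat2.

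Cholesterol synthesis and uptake, which SREBP-2 governs and SREBP-1 shares in part, had 11 of 20 tested genes lower and 0 higher in the liver. Over all tested genes the shares were 2.01% and 4.91%. The 11 were Hmgcs1, Mvk, Mvd, Idi1, Fdft1, Sqle, Lss, Cyp51, Msmo1 and Sc5d of the synthetic route and the sterol carrier Stard4. Their log2 fold changes lay between -1.79 (Idi1) and -1.03 (Lss), and the list's median was -1.12. Msmo1 and Stard4 were called without any one library, the other 9 in 1 to 4 of 6 such fits. In the duodenum 4 of 20 were lower and 0 higher, against 0.919% and 1.23% of all tested genes. The lower ones were Fdft1, Sqle, Dhcr7 and Mvd, with log2 fold changes between -1.07 and -0.83, and the list median was -0.37. None of the 4 was called in more than 1 of 6 fits without a library. The difference between tissues passed for Msmo1, Sc5d and Stard4 (log2 differences of -2.33, -1.19 and -1.85, with adjusted p = 0.000233, 0.0329 and 0.0169 by limma), and that of Sc5d in 4 of 12 fits without a library. Without duodenal Veh2 and Veh3 the difference was -2.13 for Msmo1, -1.07 for Sc5d and -1.39 for Stard4. The duodenal log2 fold changes were then -0.86 for Fdft1, -1.21 for Sqle, -1.28 for Dhcr7 and -0.995 for Mvd.

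**Figure D5:**
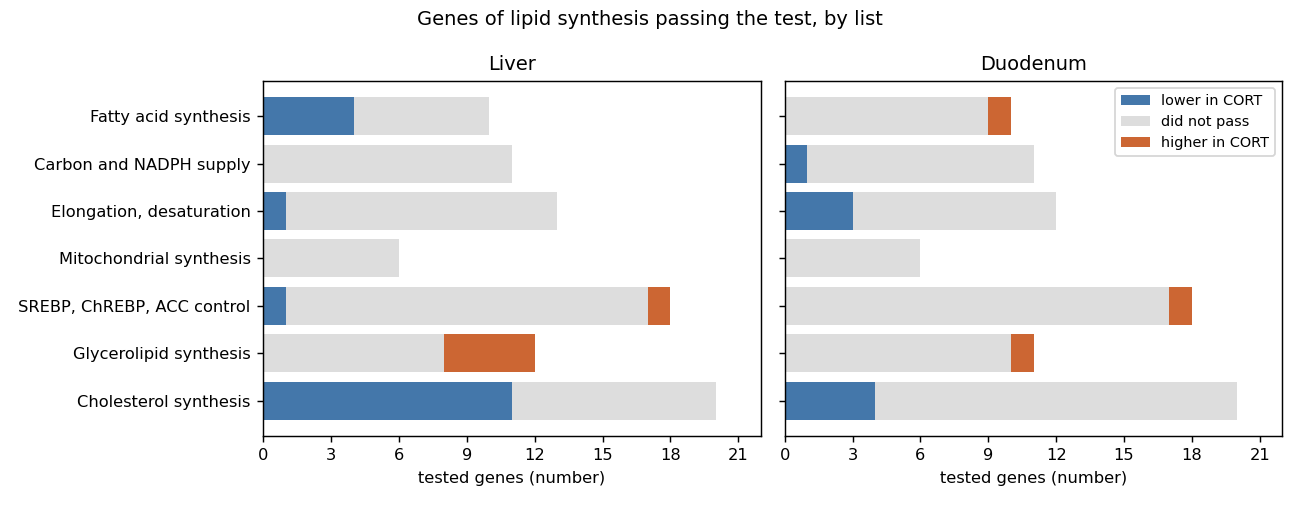
Number of tested genes (horizontal axis) in each list of lipid synthesis genes that passed as lower (blue), passed as higher (orange) or did not pass (grey) in CORT against Veh, for liver, left, and duodenum, right. In the liver 4 of 10 fatty acid synthesis genes and 11 of 20 cholesterol synthesis genes were lower and 4 of 12 glycerolipid genes higher, while in the duodenum no list had more than 4 genes that passed. Over all tested genes 2.01% were lower and 4.91% higher in the liver, and 0.919% lower and 1.23% higher in the duodenum.

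Genes with a pattern like that of 3 members were found by the root mean square difference of log2(TPM + 1), centred within each tissue, over the 12 libraries and 10500 genes. Nearest to Fasn were Acly (0.204), the cholesterol synthesis gene Hmgcs1 (0.208) and the carotenoid oxygenase Bco2 (0.209), where Fasn itself varied by 0.554 around its tissue means. Nearest to Srebf1 were Apol7a (0.395), Gm17753 (0.404) and Ahnak (0.410), against 0.835 for the spread of Srebf1, and nearest to Scd1 were Rdh9 (0.417), H2-Q1 (0.421) and Aqp1 (0.451), against 0.757. The neighbours of Fasn were thus closer to it than those of Srebf1 and Scd1 were to theirs. These distances are descriptions over libraries that share treatment and tissue.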

How the data were processed

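RNA-seq of liver and duodenum was analysed, with 3 Veh and 3 CORT libraries per tissue grouped by their labels. The authors used SeqPrep and Sickle for trimming, HISAT2 for alignment, StringTie for assembly and RSEM for quantification. Deposited by them were TPM for each gene in each library. The submitters' processing notes name GRCm39, and the annotation release is not given in the sources used here. TPM keep no read depth, so no counting error or detection limit can be given and the precision comes from 3 replicates per group.

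Each tissue was fitted alone in limma 3.58.1 (R 4.3.3, lmFit and eBayes with trend) on log2(TPM + 1), which understates changes of low genes. Genes with a mean of 1 TPM or more in Veh or CORT were tested, and Benjamini-Hochberg adjustment ran over all of them. The fits were tested on simulated data. Members and gene lists were chosen with earlier results of these data known. Named were the 10 members, 3 treatment controls, 9 pathway genes whatever their values, every called gene of the 6 pathway lists in the tissue described and the 3 nearest patterns of Fasn, Srebf1 and Scd1. G6pdx, Insig2, Gpat3, Gpat4, Dgat2, Msmo1, Sc5d and Stard4 are also named for their tissue difference. Cidec, Adipoq, Lep, Plin1, Fabp4, Pparg, Cd163, Clec4f and Apoa4 were named after their values were seen. Some genes of the lists are not reported here.

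The settings varied were the pseudocount (0.1), the filter (none), the scaling (median-ratio), a replicate block, leaving out each library, no fold change limit, unadjusted p-values, arrayWeights, and removal of acinar or adipocyte genes. Leaving out duodenal Veh2 and Veh3 together was chosen after seeing the data.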

Additional observations from a re-analysis of the deposited data

Results flagged for a closer look

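The response to CORT differed between liver and duodenum for 3 members by the treatment by tissue term of limma. Srebf1 differed by -2.91 on the log2 scale, with a log2 fold change of -1.71 in the liver and 1.20 in the duodenum. Fasn differed by -1.36, from -1.44 in the liver and -0.09 in the duodenum, and Acly by -1.12, from -1.20 and -0.08. Acinar genes held more of the TPM in duodenal Veh2 and Veh3 than in the other duodenal libraries. Without Veh2 and Veh3 the differences were -2.32 for Srebf1, -1.35 for Fasn and -1.25 for Acly. That fit kept 1 Veh duodenum, so it cannot decide whether the calls depend on the acinar-rich libraries.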

How the results depend on the processing

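With no filter on low values, more genes were tested and the count of members called went from 4 to 0 in the liver and from 1 to 0 in the duodenum. Deviations from the group means correlated between -0.12 and 0.07 for same-numbered Veh and CORT libraries. For differently numbered ones they correlated between -0.14 and 0.127. With 3 libraries per group these values cannot decide whether replicate numbers pair the samples. With the replicate block 1 member was called in the liver (Srebf1), 0 in the duodenum and 1 in the tissue difference (Srebf1). In the liver, a pseudocount of 0.1 and arrayWeights each called 5 members, 1 of them higher. This was Acacb, with limma adjusted p = 0.0496 and 0.0221. Unadjusted p-values called 6 liver members, 2 of them higher (Acacb and Thrsp). In the duodenum, unadjusted p-values called 4 members, arrayWeights called 3 and removal of the acinar genes called 1, and the cause was not tested. Leaving out each library called 0 to 4 members in the liver, 0 to 1 in the duodenum and 1 to 3 in the tissue difference, and the Acacb share differed by 36.0 to 44.7 percentage points in the liver and 22.7 to 38.6 in the duodenum.

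Signs turned in these cases. Without Veh2 and Veh3 the duodenal log2 fold change was 0.051 for Acly and -0.11 for Insig2, the tissue difference 0.27 for Scd1 and -0.97 for Me1, and with a pseudocount of 0.1 the Acacb difference between tissues was -0.013. Without single libraries the log2 fold change ran from -0.22 to 0.69 for Scd2 and -0.76 to 0.62 for Pklr in the liver, and in the duodenum from -0.62 to 1.13 for Me1, -0.062 to 0.428 for Insig2, -0.20 to 0.019 for Scap and -0.23 to 0.026 for Fasn. The tissue difference ran from -0.72 to 0.14 for Scd1 and -0.31 to 1.45 for Me1.

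Over all genes, the liver called 810 (575 higher, 235 lower), against 1011 (543 higher, 468 lower) with median-ratio scaling, 283 without the filter, 307 with the replicate block, 1808 unadjusted and 1874 with arrayWeights. The duodenum called 292, against 52 without the filter, 62 with the replicate block, 1395 unadjusted and 691 with arrayWeights. The tissue difference called 315 (193 positive, 122 negative), against 443 (203 positive, 240 negative) with median-ratio scaling and 160 with the block. Leaving out each library gave 247 to 831, 66 to 237 and 161 to 444 genes.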

Other observations

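Of the 10 members, 7 had their highest Veh value in liver Veh3, among them Fasn, Acly, Me1 and Thrsp, whereas Srebf1 and Mlxipl had their lowest there. The glucocorticoid-induced genes were also highest of the Veh livers in Veh3, with Fkbp5 at 19.5 TPM, Tsc22d3 at 68.0 TPM and Per1 at 8.80 TPM. In the CORT livers 6 members, Srebf1, Fasn, Acaca, Acacb, Elovl6 and Me1, were lowest in CORT3 and none was highest there. No share over all tested genes is given for these counts, so they do not show a trait particular to the members. Apoa4, an apolipoprotein of enterocytes, had 76.2 to 172 TPM in Veh livers and 2691, 3840 and 555 TPM in CORT livers, again lowest in CORT3.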
